A study of Mus musculus with 4 samples.

Results

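Ribosome biogenesis is the making of new ribosomes, which begins in the nucleolus. RNA polymerase I copies the ribosomal DNA into a long precursor RNA. Small nucleolar ribonucleoproteins (snoRNPs), the small subunit processome and a series of assembly factors then modify, cut and fold this precursor into the small (40S) and large (60S) ribosomal subunits. In regenerating liver the pathway is known as part of the early growth response of hepatocytes, and the transcription factor Myc is a well-known activator of its genes.

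A total of 59 genes of this pathway were taken from a table of 24421 mouse gene symbols by their names alone. They comprise all symbols that begin with Nop, Utp, Nol or Rrp and a digit, the Polr1 genes, Rrs1 and 19 further listed factors such as Ncl, Npm1, Fbl and Pes1. Liver RNA came from mice after hepatectomy, the surgical removal of part of the liver, in 2 groups of 2 libraries. Control mice were given fibrin gel, and gelADSC mice were given fibrin gel carrying ADSC, the usual abbreviation of adipose-derived stem cells, so that hepatectomy and gel were common to both. The sources used here do not give strain, sex, age, time after surgery, the origin of the ADSC or any pooling. They also do not say whether each library is a separate animal, so p-values measure only the spread between libraries, which may be technical. The comparison asks how the addition of ADSC to the gel went with liver transcript levels.

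Levels are given in FPKM, a fragment count adjusted for transcript length and for library size. Libraries are called by the number in their column name, 1 and 3 for control and 2 and 3 for gelADSC. The smallest steps of the values put the depth at roughly 18100000 to 24400000 reads, so that 1 read in a 2 kb gene was worth 0.0205 to 0.0276 FPKM. Each change is the gelADSC mean minus the control mean on the log2(FPKM + 1) scale, and such changes understate the change of low genes. Genes averaging 1 FPKM or more over the libraries were tested with limma (two-sided), and a gene is called lower or higher where its p, adjusted by Benjamini-Hochberg over all 11070 tested genes, was under 0.05. Of the 59 genes 55 were tested. In whole tissue, fewer cells that express a gene and less RNA per cell cannot be told apart.

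The labelled tissue was checked against marker genes. All 11 hepatocyte markers were tested, and they summed to 57659 and 69172 FPKM in control libraries, against 51850 and 68366 FPKM with gelADSC, with 1 called higher and 1 lower. Markers of other cells also differed between libraries. Of 7 bile duct markers 5 were tested and 2 were called lower, with sums of 171 and 312 FPKM in control libraries, against 58.3 and 49.8 FPKM with gelADSC. Of 9 neutrophil and monocyte markers 6 were tested and 1 was called lower, with sums of 76.5 and 71.7 FPKM in control libraries, against 76.1 and 27.5 FPKM with gelADSC libraries 2 and 3. Of 11 macrophage markers 1 was called lower, with sums of 455 and 494 FPKM against 552 and 286 FPKM. Of 10 stellate cell and fibroblast markers 3 were called higher, with sums of 174 and 77.5 FPKM against 146 and 121 FPKM. Of 9 sinusoidal endothelium markers 2 were called higher and 1 lower, with sums of 139 and 126 FPKM against 144 and 128 FPKM. Of 9 adipose markers 5 were tested and 1 was called lower (58.4 and 32.2 FPKM against 34.9 and 26.7 FPKM), and of 9 erythroid markers 1 was tested and called higher (11.1 and 10.1 FPKM against 40.1 and 38.9 FPKM). The 10 lymphocyte markers summed to at most 2.61 FPKM in any library. The part of other cell types in the results below was not tested. The 6 globin genes of the erythroid list were listed at 0 in all 4 libraries, so a 0 in this table is not taken as absence of the transcript.

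Transcripts of ribosome biogenesis genes were mostly lower in gelADSC livers. Of the 55 tested genes 15 were called lower (27.3%) and 0 higher by limma, against a background of 17.5% lower and 6.92% higher over all tested genes. At an unadjusted p under 0.05 there were 34 lower and 0 higher, but the share of all tested genes at that threshold was not computed. The median log2 change was -0.66, from -1.01 for Npm1 to 0.13 for Polr1a, while the median of all tested genes was -0.25. The quartiles of these genes were -0.74 and -0.42, and those of all tested genes were -0.57 and 0.10. In 46 of the 55 (83.6%) both gelADSC libraries read below both controls, which held for 50.5% of all tested genes. In the remaining 9 the groups overlapped, and 0 had gelADSC higher (19.2% of all tested genes). On the log2(FPKM + 1) scale Npm1 and Ltv1 were at least 2-fold lower without overlap, as were 8.45% of all tested genes, and 0 were at least 2-fold higher, against 5.38%. On the FPKM scale itself, Rrp7a (46.9% of the control mean) and Nop58 (47.8%) also read that low without overlap. A negative change was seen in 52 of 55 genes, against 68.8% of all tested genes.

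The control libraries also differed from each other in these genes. Control library 1 read above control library 3 in 54 of 55 genes (98.2%, against 76.8% of all tested genes), the exception being Rrs1. The median difference between the controls was 0.45 on the log2 scale. From control library 3 down to the mean of gelADSC the median step was -0.39, and from control library 1 it was -0.84. The gelADSC libraries were close to each other, with a median of 0.10 for library 3 minus library 2. Summed over the 59 genes, the level was 1141 and 812 FPKM in control libraries 1 and 3 and 561 and 617 FPKM in gelADSC libraries 2 and 3. The count of called genes turned on these controls. Without control library 1, limma called 0 of 55 lower (background 3.01%), and the median log2 change was -0.39. Without control library 3 it called 26 (background 15.3%), without gelADSC library 2, 4 (background 10.9%), and without gelADSC library 3, 10 (background 14.4%). Scaling that removes the common shift of all genes left 4 called, Nop10, Rrp7a, Ltv1 and Bop1, both with median ratio scaling (background 8.56%) and with quantile normalization (background 9.03%). Under either scaling the share of called genes, 7.27%, was near the background. The median log2 change was then -0.39 and -0.38. A pseudocount of 0.1 gave 19 called (background 18.4%) and one of 5 gave 10 (background 15.8%). With no filter on low values 1 of 58 was called (background 4.16%), with a mean of at least 5 FPKM 24 of 44 (background 27.4%), and without the trend 13 (background 16.6%). In every one of these settings 0 were called higher. The background of higher calls was 7.39% and 6.36% for the pseudocounts of 0.1 and 5, 2.99% with no filter, 8.6% with the higher filter, 8.6% and 8.41% for the scalings and 6.93% without the trend. It was 2.76% and 4.96% without control library 1 and 3, and 6.99% and 5.97% without gelADSC library 2 and 3.

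**Figure D1:**
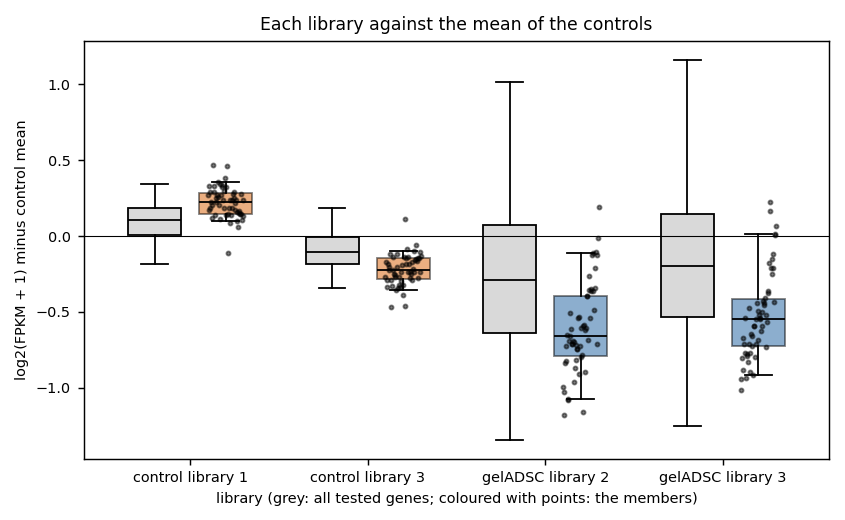
Difference of each library from the mean of the controls, in log2(FPKM + 1), for all 11070 tested genes (grey) and the 55 tested ribosome biogenesis genes (coloured boxes, 1 black point per gene). Boxes span the quartiles with the median as a line and whiskers the 5th to 95th percentile. The controls mirror each other because their mean is the zero line. The coloured medians lie at 0.23 and -0.23 in the controls and -0.66 and -0.55 in gelADSC, each farther from zero than the grey medians.

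**Figure D2:**
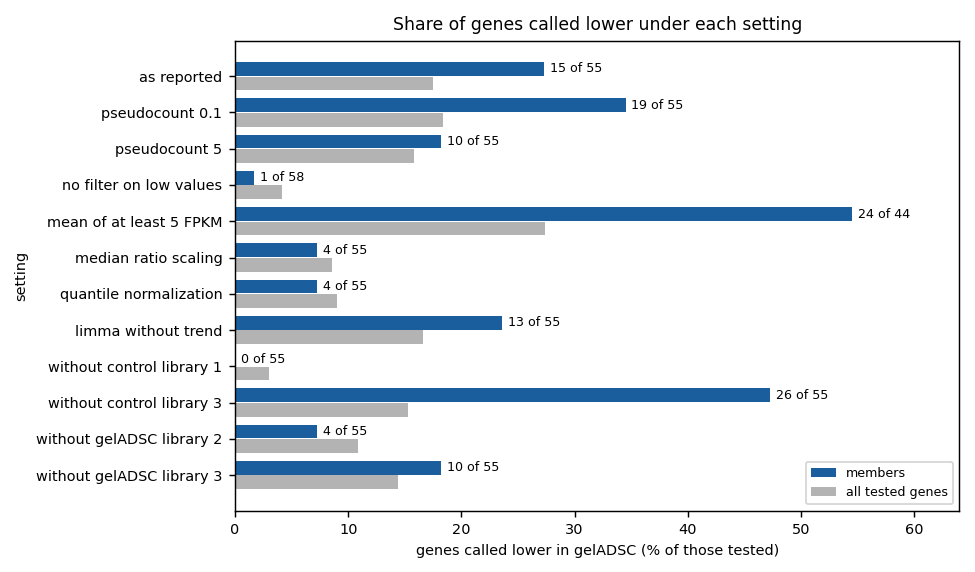
Percent of tested genes called lower in gelADSC under each setting, for the ribosome biogenesis genes (blue, with counts) and all tested genes (grey). As reported, 15 of 55 were called, and without control library 1, 0 of 55.

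Among RNA polymerase I subunits and factors, 7 of 9 genes read lower without overlap (77.8%, against 50.5% of all tested genes). Of the 9, Ncl alone was called lower (11.1%, against 17.5%) and 0 were higher, with a median log2 change of -0.59. Ncl encodes nucleolin, an abundant nucleolar RNA-binding protein. It read 49.6 and 30.6 FPKM in control libraries, against 21.7 and 20.2 FPKM with gelADSC (log2 change -0.87, SE 0.25, limma adjusted p = 0.0354). The control libraries were higher without overlap and far apart from each other. Mybbp1a, a nucleolar Myb-binding protein that associates with the polymerase, read 35.8 and 22.0 FPKM in control libraries, against 16.4 and 15.7 FPKM with gelADSC (limma adjusted p = 0.0518). The call of Ncl was lost without control library 1 (limma adjusted p = 0.178), without gelADSC library 3 (0.0527), with median ratio scaling (0.104), quantile normalization (0.14) and no filter on low values (0.106).

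Of the catalytic subunits Polr1a and Polr1b and the initiation factors Ubtf and Rrn3, 0 were called. Polr1a, the largest subunit, read 5.74 and 4.62 FPKM in control libraries, against 6.03 and 5.45 FPKM with gelADSC, and the groups overlapped (log2 change 0.13, SE 0.21, limma adjusted p = 0.676). Polr1b, the second largest subunit, read 8.10 and 5.44 FPKM in control libraries, against 4.99 and 4.34 FPKM with gelADSC (log2 change -0.44, limma adjusted p = 0.198). Ubtf, the upstream binding factor that marks active ribosomal DNA, read 14.7 and 12.6 FPKM in control libraries, against 12.4 and 15.4 FPKM with gelADSC, with overlap and a log2 change of 0.02. Rrn3, which brings the polymerase to the promoter, read 8.45 and 7.74 FPKM in control libraries, against 6.08 and 6.87 FPKM with gelADSC (log2 change -0.28, limma adjusted p = 0.314). Polr1c and Polr1d, subunits shared with RNA polymerase III, had log2 changes of -0.66 and -0.71 and missed the threshold (limma adjusted p = 0.0678 and 0.0528), and Polr1e had -0.59. In these 3 subunits, as in Polr1b and Rrn3, the groups did not overlap.

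**Figure D3:**
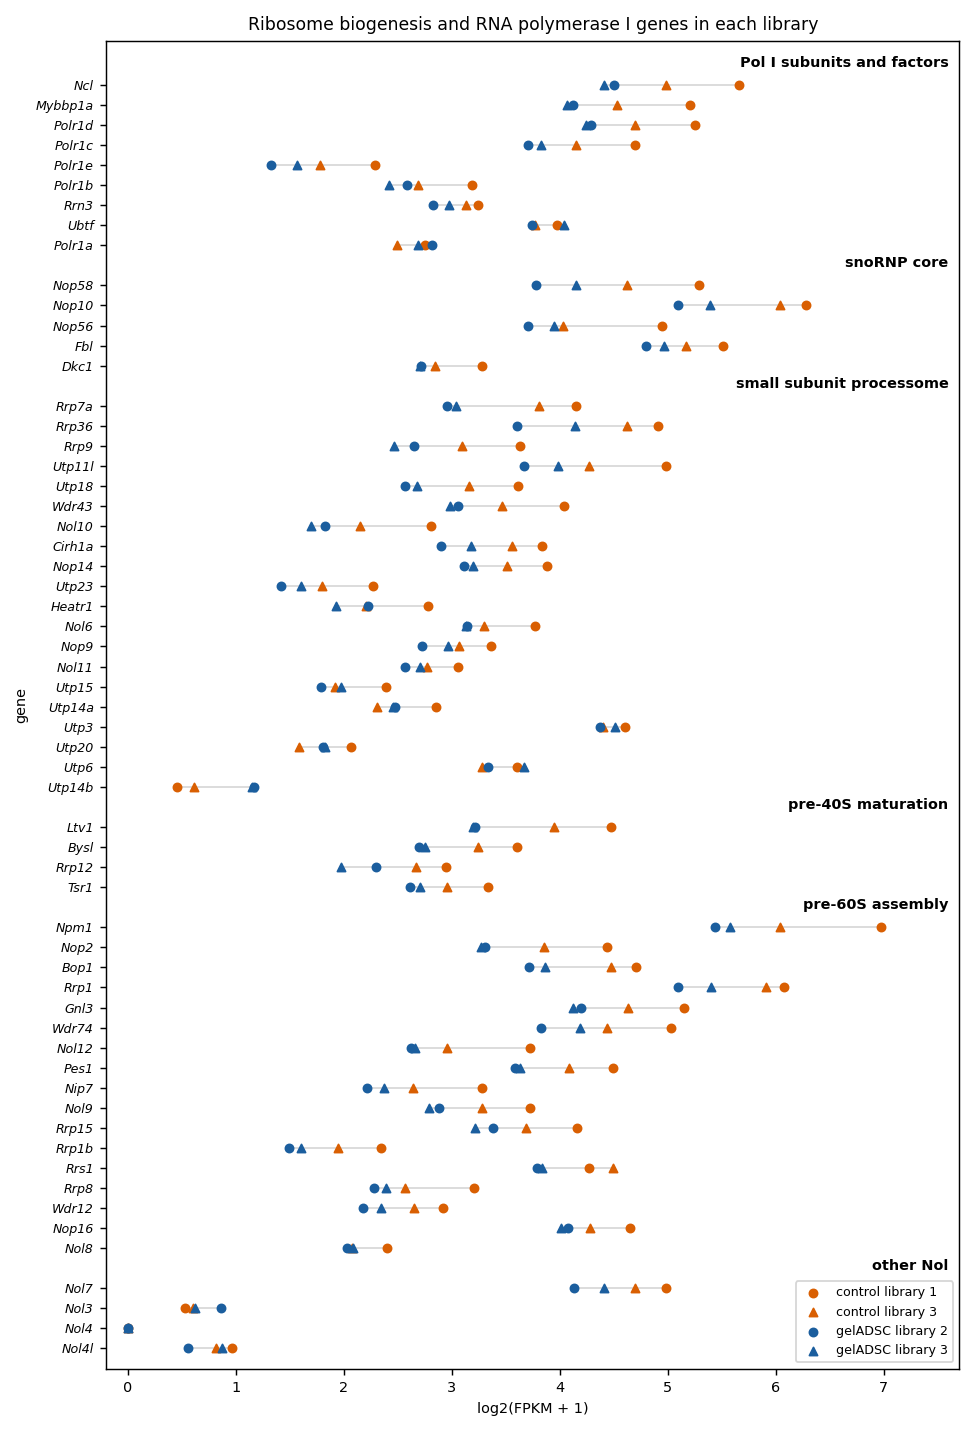
Level of all 59 genes in each library as log2(FPKM + 1), grouped by role and ordered by change within a role. Orange marks control and blue gelADSC, with circles for control library 1 and gelADSC library 2 and triangles for library 3 of each group. In 45 of the 55 tested genes control library 1 is highest and control library 3 second, with both gelADSC libraries below. The same order held in 43.9% of all tested genes.

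The snoRNP core proteins all read lower in gelADSC without overlap, as did 50.5% of all tested genes. Of the 5, 2 were called lower (40%, against 17.5% of all tested genes). Nop58, a scaffold of the box C/D snoRNPs that guide ribose methylation, read 38 and 23.6 FPKM in control libraries, against 12.7 and 16.7 FPKM with gelADSC (log2 change -0.99, SE 0.26, limma adjusted p = 0.0277). Nop10, the smallest core protein of the box H/ACA snoRNPs that guide pseudouridylation, read 76.8 and 64.8 FPKM in control libraries, against 33.1 and 41.0 FPKM with gelADSC (log2 change -0.92, SE 0.20, limma adjusted p = 0.0143). The control libraries of Nop10 were close for their level, as were those of Rrp1 (66.6 and 59.2 FPKM) and Bop1 (25.1 and 21.2 FPKM). The partner of Nop58, Nop56, read 29.9 and 15.3 FPKM in control libraries, against 12.0 and 14.4 FPKM with gelADSC (log2 change -0.67, limma adjusted p = 0.13). Its lower control lay next to the gelADSC libraries. The methyltransferase fibrillarin (Fbl) read 44.6 and 34.9 FPKM in control libraries, against 26.9 and 30.2 FPKM with gelADSC (log2 change -0.46, limma adjusted p = 0.128). The pseudouridine synthase dyskerin (Dkc1) read 8.72 and 6.17 FPKM in control libraries, against 5.54 and 5.51 FPKM with gelADSC (log2 change -0.36, limma adjusted p = 0.263). Both calls were lost without control library 1 (limma adjusted p = 0.179 for Nop58 and 0.116 for Nop10) and without gelADSC library 2 (0.0705 to 0.072). That of Nop58 was also lost with median ratio scaling (0.0703), quantile normalization (0.0947) and no filter (0.0971).

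The small subunit processome, the large particle that makes the first cuts on the way to the 40S subunit, held 6 of the 9 tested genes whose groups overlapped. Of 20 genes 19 were tested, with a median log2 change of -0.52. In 13 of the 19 both gelADSC libraries read below both controls (68.4%, against 50.5% of all tested genes). Of the 19, 4 were called lower (21.1%, near the background of 17.5%) and 0 higher. The 4 were Rrp7a, Rrp36, Rrp9 and Utp18. Rrp7a, a processome protein, read 16.7 and 13.0 FPKM in control libraries, against 6.73 and 7.20 FPKM with gelADSC (log2 change -0.98, SE 0.21, limma adjusted p = 0.0119), so that each gelADSC library was well below each control. Rrp36, Rrp9 and Utp18 fell with log2 changes of -0.89, -0.80 and -0.76. All 4 calls were lost without control library 1 (limma adjusted p from 0.0915 to 0.211) and with no filter (0.0505 to 0.12). Those of Rrp36, Rrp9 and Utp18 were lost with median ratio scaling (0.0597 to 0.0979), quantile normalization (0.0537 to 0.0963) and without gelADSC library 2 (0.0636 to 0.196). Rrp9 and Utp18 also lost theirs with a pseudocount of 5 (0.0522 to 0.0555) and without gelADSC library 3 (0.0871 to 0.151), and Rrp36 without control library 3 (0.0652).

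Components of the UTP-A subcomplex and its neighbours, which act early on the precursor, had no call. Wdr43 read 15.4 and 10 FPKM in control libraries, against 7.34 and 6.88 FPKM with gelADSC (log2 change -0.73, limma adjusted p = 0.0538). Nol11 read 7.30 and 5.82 FPKM in control libraries, against 4.93 and 5.51 FPKM with gelADSC (log2 change -0.28, limma adjusted p = 0.355). Heatr1 read 5.87 and 3.59 FPKM in control libraries, against 3.68 and 2.80 FPKM with gelADSC, where the groups overlapped by a small margin. Nol6, a structural protein of the processome, read 12.6 and 8.82 FPKM in control libraries, against 7.82 and 7.73 FPKM with gelADSC (limma adjusted p = 0.213). None of these 4 passed the test. Cirh1a, Utp11l, Nol10, Nop14, Utp23 and Nop9 also separated the groups, with log2 changes from -0.80 to -0.37 and no call. Utp3, Utp6, Utp14a, Utp15 and Utp20 did not separate the groups, and their log2 changes lay between -0.27 and 0.06. Utp20 read 3.17 and 2.00 FPKM in control libraries, against 2.50 and 2.55 FPKM with gelADSC, with both gelADSC libraries between the controls.

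Utp14b, by contrast, read 0.366 and 0.527 FPKM in control libraries, against 1.25 and 1.21 FPKM with gelADSC, so that both gelADSC libraries were higher. Its mean was under 1 FPKM, so it was not among the tested genes. With no filter on low values its log2 change was 0.63 (SE 0.13, limma adjusted p = 0.0571), which missed the threshold. Utp14b is known as a retrotransposed copy of the X-linked Utp14a, so reads may have been shared between them. It also shares 244 exon bases on the same strand with Acsl3 in GENCODE M21, and reads there cannot be assigned to one gene by strand. Acsl3, an acyl-CoA synthetase, read 11.4 and 13.3 FPKM in control libraries, against 12.5 and 8.27 FPKM with gelADSC, with overlapping groups. Utp14a read 6.21 and 3.93 FPKM in control libraries, against 4.53 and 4.49 FPKM with gelADSC.

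Factors of late 40S maturation all read lower without overlap, as did 50.5% of all tested genes, and their median log2 change was -0.68. Of the 4, 2 were called lower (50%, against 17.5% of all tested genes). Ltv1, which leaves the particle late in its maturation, read 21.3 and 14.4 FPKM in control libraries, against 8.30 and 8.14 FPKM with gelADSC (log2 change -1.0, SE 0.23, limma adjusted p = 0.0161). Bysl (bystin) read 11.2 and 8.43 FPKM in control libraries, against 5.49 and 5.73 FPKM with gelADSC (log2 change -0.70, SE 0.21, limma adjusted p = 0.0448). In both genes the gelADSC libraries were nearly equal. Rrp12, an export factor, read 6.69 and 5.34 FPKM in control libraries, against 3.93 and 2.93 FPKM with gelADSC (limma adjusted p = 0.0618). Tsr1, a GTPase-like factor of the cytoplasmic steps, read 9.06 and 6.75 FPKM in control libraries, against 5.10 and 5.51 FPKM with gelADSC (limma adjusted p = 0.129). The calls of Ltv1 and Bysl were lost without control library 1 (limma adjusted p = 0.104 and 0.2) and with no filter (0.0661 and 0.106). Bysl also lost its call with median ratio scaling (0.0649), quantile normalization (0.0636), a pseudocount of 5 (0.0574), without gelADSC library 2 (0.199) and without gelADSC library 3 (0.141).

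Of 17 assembly factors of the 60S subunit 6 were called lower and 0 higher (35.3% lower, against 17.5% of all tested genes). The share was larger in the pre-40S factors (50%) and the snoRNP core (40%), where fewer genes were tested. In 16 of the 17 the gelADSC libraries read lower without overlap (94.1%, against 50.5%). All 17 had a negative change, against 68.8% of all tested genes, and the median was -0.67. Npm1, nucleophosmin, a nucleolar chaperone, read 125 and 64.9 FPKM in control libraries, against 42.2 and 46.6 FPKM with gelADSC (log2 change -1.01, SE 0.29, limma adjusted p = 0.0379). It was the most abundant of the 59 genes per length in control library 1, and the controls lay farther apart than control library 3 and the gelADSC libraries did. Npm1 has many processed pseudogenes in the mouse, so its share of reads is uncertain. Nop2, which methylates the large ribosomal RNA, read 20.6 and 13.5 FPKM in control libraries, against 8.91 and 8.61 FPKM with gelADSC (log2 change -0.86, SE 0.23, limma adjusted p = 0.031). Gnl3, nucleostemin, a nucleolar GTPase, read 34.5 and 23.8 FPKM in control libraries, against 17.4 and 16.4 FPKM with gelADSC (log2 change -0.73, limma adjusted p = 0.0438). Rrp1 fell with a log2 change of -0.75 (limma adjusted p = 0.0287).

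The PeBoW complex, in which Pes1, Bop1 and Wdr12 act together on the large subunit, read lower for all 3 genes. Bop1 read 25.1 and 21.2 FPKM in control libraries, against 12.1 and 13.6 FPKM with gelADSC (log2 change -0.80, SE 0.19, limma adjusted p = 0.0211). Pes1 read 21.4 and 15.9 FPKM in control libraries, against 11 and 11.4 FPKM with gelADSC (log2 change -0.68, SE 0.21, limma adjusted p = 0.0472). Wdr12 read 6.55 and 5.25 FPKM in control libraries, against 3.51 and 4.06 FPKM with gelADSC (log2 change -0.53, limma adjusted p = 0.103). Bop1 and Pes1 were called and Wdr12 was not, while none of the 3 had overlapping groups. Rrs1, which helps to load the small 5S particle, read 18.2 and 21.4 FPKM in control libraries, against 12.8 and 13.3 FPKM with gelADSC (limma adjusted p = 0.0625), the one tested gene with control library 3 above library 1. Nol8 read 4.27 and 3.20 FPKM in control libraries, against 3.07 and 3.25 FPKM with gelADSC and was the only one of the 17 with overlap. The other 8 genes, Wdr74, Nol12, Nip7, Nol9, Rrp15, Rrp1b, Rrp8 and Nop16, had log2 changes from -0.73 to -0.42 and no call. All 6 calls were lost without control library 1 (limma adjusted p from 0.124 to 0.209) and with no filter (0.0558 to 0.128). All but that of Bop1 were lost with median ratio scaling (0.072 to 0.117) and quantile normalization (0.0823 to 0.149), and all but that of Npm1 without gelADSC library 2 (0.0551 to 0.2). Nop2, Gnl3 and Pes1 lost theirs without gelADSC library 3 (0.0648 to 0.133), Rrp1 without control library 3 (0.0611), and Gnl3 and Pes1 with a pseudocount of 5 (0.051 to 0.055) or without the trend (0.0544 to 0.0566).

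**Figure D4:**
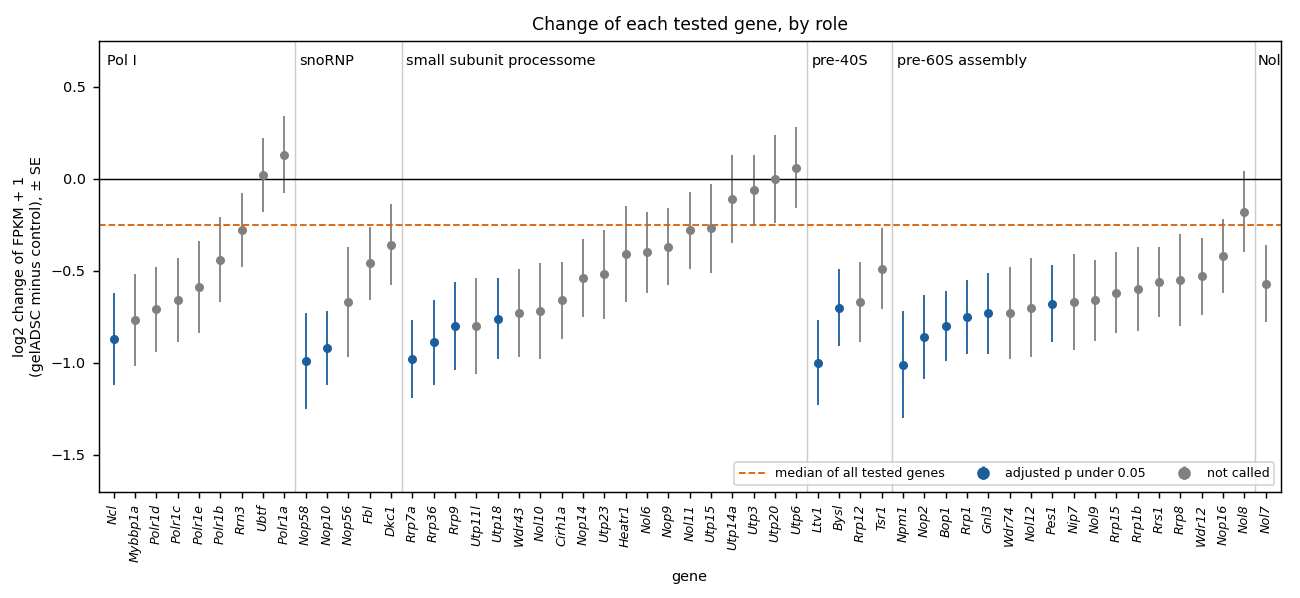
Log2 change of FPKM + 1, gelADSC minus control, with its SE (bars) for the 55 tested genes, ordered by change within each role. Blue points were called lower, grey points were not called, and the dashed line is the median of all tested genes (-0.25). Most points lie below the dashed line, while Ubtf, Polr1a, Utp3, Utp6, Utp14a, Utp20 and Nol8 lie above it.

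The 4 remaining Nol genes bear the name of nucleolar proteins but have other or unsettled roles. Nol7 read 30.6 and 24.9 FPKM in control libraries, against 16.5 and 20.2 FPKM with gelADSC (log2 change -0.57, limma adjusted p = 0.0737). Nol3, known as an apoptosis repressor, read 0.437 and 0.520 FPKM in control libraries, against 0.814 and 0.536 FPKM with gelADSC. Both gelADSC libraries of Nol3 were thus higher, library 3 by a small margin. With no filter on low values Nol3 was not called (log2 change 0.18, limma adjusted p = 0.399). Nol4l read 0.954 and 0.754 FPKM in control libraries, against 0.471 and 0.829 FPKM with gelADSC. Both were under the filter and low in every library. Nol4 was listed at 0 in all 4 libraries.

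Genes of the same pathway outside the naming rule mostly read lower too. The 6 lists held further polymerase I factors, snoRNP, processome, pre-40S, pre-60S and exosome genes. Of their 117 tested genes 22 were called lower and 0 higher by limma, with a median log2 change of -0.46. This share of called genes, 18.8%, was close to the background of 17.5%. At an unadjusted p under 0.05, 49 were lower and 0 higher, but the share of all tested genes at that threshold was not computed. Groups did not overlap in 85 of the 117 with gelADSC lower (72.6%, against 50.5% of all tested genes) and in 3 with gelADSC higher (background 19.2%). Without control library 1 the count was 1 of 116, without gelADSC library 2 or 3 it was 8 and 12, and with median ratio scaling and quantile normalization it was 9 and 8, with 4 of 118 called with no filter. Pre-60S factors held 10 of the 22 calls among 44 tested (22.7%, against the background of 17.5%). The exosome, which trims the ribosomal RNA, held 2 among 15 (13.3%).

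Eif6, which keeps the 60S subunit from joining the 40S subunit too early, had the largest change. It read 231 and 138 FPKM in control libraries, against 35.4 and 44.3 FPKM with gelADSC (log2 change -2.14, SE 0.27, limma adjusted p = 0.00126), 21.6% of the control mean. It was called in all 11 alternative settings, with limma adjusted p values of at most 0.0276. The helicase Ddx54 (log2 change -1.05), the kinase Riok3 (-1.06), the pre-40S factor Pno1 (-0.93) and the H/ACA protein Nhp2 (-1.08) fell to between 45.5% and 51.2% of the control mean. Among polymerase I factors the promoter factor subunit Taf1a and the helicase Ddx21 fell with log2 changes of -0.93 and -0.77. In the processome list Dhx37 and Dcaf13 fell by 0.80 and 0.78 on the log2 scale, and in the exosome Exosc1 and Exosc4 by 0.77 and 0.74. Without control library 1 each of these calls except that of Eif6 was lost (limma adjusted p from 0.0632 for Ddx54 to 0.223 for Dhx37). Without gelADSC library 2 those of Ddx21, Dhx37, Dcaf13, Exosc1 and Exosc4 were lost (0.0551 to 0.204), and without gelADSC library 3 those of Taf1a, Ddx21, Dhx37, Exosc1 and Exosc4 (0.0508 to 0.152). Median ratio scaling ended those of Ddx21, Dhx37, Dcaf13 and Exosc4 (0.0594 to 0.106), and quantile normalization these and Nhp2 (0.0514 to 0.131). With low values kept in, Taf1a, Ddx21, Nhp2, Dhx37, Dcaf13, Exosc1 and Exosc4 lost theirs (0.0599 to 0.133), and Dhx37 also with a pseudocount of 5 (0.0592).

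RNA polymerase III, which makes the 5S ribosomal RNA, had 2 of 10 subunits called lower (20%, near the background of 17.5%) and 0 higher, with a median log2 change of -0.48. Its subunits Polr3d and Polr3g fell with log2 changes of -1.11 and -0.99. Both calls were lost without control library 1 (limma adjusted p = 0.174 and 0.0984), and that of Polr3g also without gelADSC library 3 (0.0525). With low values kept in both were lost (0.114 and 0.0631), and that of Polr3d also under both scalings (0.0656 to 0.0755). Myc itself read 19.9 and 7.97 FPKM in control libraries, against 3.48 and 4.34 FPKM with gelADSC (log2 change -1.48, SE 0.36, limma adjusted p = 0.021). For Myc control library 1 was highest and control library 3 second, an order shared by 45 of the 55 tested biogenesis genes and 43.9% of all tested genes. The call of Myc was lost under median ratio (0.0736) and quantile (0.0639) scaling, without control library 1 (0.104) and where low values were kept (0.106). The other 8 tested genes of the Myc network, partners and antagonists such as Max and Mxi1, had no call. Mycn, under the filter, read 0.580 and 0.659 FPKM in control libraries, against 0.111 and 0.0956 FPKM with gelADSC, and with low values kept in it was lower (log2 change -0.55, limma adjusted p = 0.023). It was chosen after its values were seen. S phase and mitosis genes differed in direction, with 8 of 14 and 6 of 14 called higher (background 6.92%) and 0 lower in either list. Both gelADSC libraries read above both controls in 13 of 14 S phase and 14 of 14 mitosis genes, against 19.2% of all tested genes. Library 3 of gelADSC stood farthest from the controls. S phase genes summed to 71.6 and 65.6 FPKM in control libraries, against 127 and 238 FPKM in gelADSC libraries 2 and 3. The mitosis genes summed to 6.08 and 7.85 FPKM, against 23.4 and 270 FPKM in the same order, so that gelADSC library 3 was highest in both lists.

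**Figure D5:**
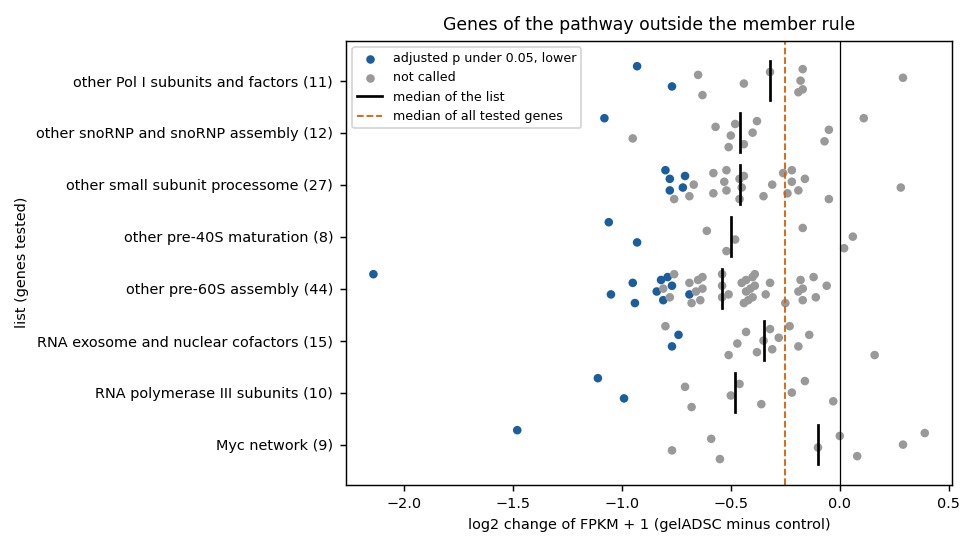
Log2 change of FPKM + 1, gelADSC minus control, for further genes of the pathway by list, 1 point per gene. Blue points were called lower and grey points were not called, black bars are list medians, and the dashed line is the median of all tested genes. List medians lie between -0.54 and -0.10, and Eif6 is the point at -2.14.

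Promoters were searched for the E-box CACGTG, the textbook binding sequence of Myc and its partner Max, which is its own reverse complement. RefSeq promoters (GRCm38.p6, 250 bases before to 50 after the transcription start) were matched for 48 of the 59 genes, Cirh1a among them under its newer symbol Utp4. The motif stood in 13 of the 48 (27.1%), in 12.0% of 8412 tested genes with an entry and in 8.09% of all 27025 genes with one. A match is a description of the letters and not evidence of binding. Of the 12 tested genes with the motif 5 were called lower (median log2 change -0.70), and of the 34 without it 8 (median -0.61). Over all tested genes 17.5% were called lower, with a median of -0.25. The share called among all tested genes with the motif was not computed. The sequences of the 5 called genes with the motif, of Rrn3 with its 2 motifs and of Utp14b, which read higher, are shown as examples. The sites of Cirh1a, Mybbp1a, Nol11, Tsr1, Utp20 and Wdr43, tested and not called, are not shown. The printed sequences therefore do not compare called with uncalled genes. The motif is in capitals, with up to 10 bases on each side.
Ltv1: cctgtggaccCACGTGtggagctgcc
Pes1: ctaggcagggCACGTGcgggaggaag
Utp18: gagcgccggtCACGTGgcttgcggcg
Rrp7a: gcctgtgcacCACGTGtcctggaact
Utp14b: cgggcgcgggCACGTGggtggggtcg

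The Ltv1 site lies at chr10:13193094-13193119 on the minus strand, its motif beginning 29 bases into the transcript, and that of Pes1 at chr11:3963967-3963992 on the plus strand, at base 3. That of Utp18 lies at chr11:93885771-93885796 on the minus strand, with the motif at base -20 from the start, and that of Rrp7a at chr15:83122994-83123019 on the minus strand, at base -208. The Utp14b site lies at chr1:78658367-78658392 on the plus strand, at base -63. For Nop2, called lower, and Rrn3, not called, the 250 bases before the start are given whole, chr6:125131633-125131882 and chr16:13780449-13780698, both on the plus strand.
Nop2: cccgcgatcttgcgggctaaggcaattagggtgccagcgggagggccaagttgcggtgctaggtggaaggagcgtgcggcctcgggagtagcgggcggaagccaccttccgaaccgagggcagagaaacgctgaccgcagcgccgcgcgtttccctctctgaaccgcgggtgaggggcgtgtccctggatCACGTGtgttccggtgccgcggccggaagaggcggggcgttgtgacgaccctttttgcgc
Rrn3: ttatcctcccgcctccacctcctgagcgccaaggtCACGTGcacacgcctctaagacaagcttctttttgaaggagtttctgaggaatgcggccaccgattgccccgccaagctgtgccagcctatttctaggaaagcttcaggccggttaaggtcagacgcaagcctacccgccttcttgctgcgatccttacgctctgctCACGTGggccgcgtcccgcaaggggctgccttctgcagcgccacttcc
In these bases Rrn3 holds 2 copies of the motif and Nop2 holds 1, with log2 changes of -0.28 and -0.86. A relation between the motif and the change was not tested.

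Some of the genes also carry snoRNA genes, whose products guide modification of the ribosomal RNA. In GENCODE M21, 7 of the 59 genes (11.9%) enclosed annotated snoRNA genes on the same strand, 21 in all, against 2.52% of 10695 tested genes matched by symbol. They were Nop56, Nop58, Ncl, Gnl3, Wdr43, Tsr1 and Dkc1. Of these 7 hosts 3 were called lower (median log2 change -0.73), and of the other 48 tested genes of the pathway 12 (median -0.61). Over all tested genes 17.5% were called lower, with a median of -0.25. The share called among all tested genes that enclose snoRNA genes was not computed. Levels of the snoRNAs themselves were not analysed here. For 18 of the 59 genes, among them the called genes Bop1, Bysl, Gnl3, Rrp7a and Rrp9, exons overlapped a gene on the opposite strand. The kit kept strand, but whether the counting used it is not given in the sources used here, so a share of their reads may belong to the partner gene.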

How the data were processed

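Per the labels' protocols, a Qiagen column kit was used for liver RNA and a stranded TruSeq mRNA kit for the libraries. Trimmomatic 0.38, TopHat2 2.1.1 and Cufflinks 2.2.1 are named in the submitters' processing notes, with no role or order. The notes also name the human build hg19, while the table holds mouse symbols, and the annotation is not given in the sources used here. The deposited values carry no unit in the file header and were taken as FPKM made by the authors, because they are not whole numbers and Cufflinks is named. Column numbers (control 1 and 3, gelADSC 2 and 3) do not match the sample titles, so columns were assigned to groups only.

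From these values log2(FPKM + 1) was computed with no further scaling, genes averaging 1 FPKM or more were kept, and limma 3.58.1 in R 4.3.3 was run with a mean-variance trend over the whole table and Benjamini-Hochberg adjustment. The code was tested on simulated data. Depth was estimated from values under 0.2 FPKM and the exon length of genes with 1 annotated transcript (GENCODE M21). The members, roles, lists and tests were chosen with earlier results of these data known. Named genes follow a rule that takes core members of each role, the largest and smallest change in a role, members under the filter, the 2 largest called changes of each further list, any called higher, and Myc. A total of 11 alternative settings were run. Of 255 further list symbols 2 had no row in the table.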

Additional observations from a re-analysis of the deposited data

How the results depend on the processing

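No paired analysis was possible because the column names share only the number 3 between the groups and the sample titles number the libraries differently. The direction of the median change of the ribosome biogenesis genes was negative in all 11 alternative settings, and 0 were called higher in each. The number called lower was 15 as reported, 1 with no filter on low values, 24 with a mean of at least 5 FPKM and 4 with either scaling, and it ranged from 0 to 26 when a library was left out. Their median log2 change was -0.39 and -0.38 under median ratio and quantile scaling and from -0.84 to -0.39 with a library left out. On the log2(FPKM + 1) scale, the number at least 2-fold lower without overlap was 2 as reported and with a library left out ranged from 0 to 16. Of the further pathway genes 22 were called lower as reported, 4 with no filter, 9 and 8 with median ratio scaling and quantile normalization, and from 1 to 32 with a library left out. Their medians were -0.22 and -0.23 with the scalings and from -0.69 to -0.26 with a library left out. Of the 15 called genes 13 remained without control library 3, 10 with a pseudocount of 5, 13 without the trend, 8 without gelADSC library 3 and 15 with a pseudocount of 0.1. The sign changed only in genes far from a call. With median ratio scaling Utp14a had 0.13, Utp3 0.22, Utp20 0.21 and Nol8 0.05, and with quantile normalization Utp14a had 0.08, Utp3 0.25 and Utp20 0.11. Leaving out 1 library each gave -0.12 to 0.17 for Ubtf, -0.0014 to 0.26 for Polr1a, -0.39 to 0.16 for Utp14a, -0.16 to 0.05 for Utp3, -0.24 to 0.23 for Utp20 and -0.11 to 0.22 for Utp6. With a pseudocount of 0.1 Utp20 had 0.0027. With a library left out, the lone library of a group is assumed to vary like the other group. The cause of these differences was not tested.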
